A study of Mus musculus with 4 samples.

Results

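Insulin-positive cells that were sorted as Glut2-high were compared between mice given streptozotocin (STZ) and mice given vehicle. The comparison covered 8877 of the 39170 gene rows in the deposited table. A gene was included when its status was OK in both libraries, it reached 5 FPKM (the count of sequenced fragments relative to transcript length and library size) in at least 1 of them, and its locus spanned 300 bp or more. Predicted genes, Rik clones and small RNAs were left out. The rule did not use the difference between the libraries, although a gene could reach 5 FPKM in either. Under the same rule 8675 genes were included in the comparison of the Glut2-low cells.

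All mice were males of the MIP-GFP C57BL/6 strain, aged 6 to 8 weeks, and carried a MIP-GFP transgene, in which the promoter of mouse insulin 1 drives green fluorescent protein. The STZ group received 200 mg/kg by intraperitoneal injection and was diabetic 4 days later, and the control group received vehicle. From each group of 3 mice, insulin-positive islet cells were sorted by flow cytometry into a Glut2-high gate (labelled Glut2H) and a Glut2-low gate (labelled Glut2L). Each gate and treatment holds 1 library, and the sources used here do not say whether it pools several mice. There is therefore no replicate check. No difference below was tested, and each one describes the library labelled Glut2H from control mice (the control library) and the library labelled Glut2H from STZ mice (the STZ library).

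STZ is a glucose analogue that alkylates DNA. It is taken up by Glut2, the glucose transporter that Slc2a2 encodes. DNA breaks activate poly(ADP-ribose) polymerase, which consumes NAD, and beta cells die, after which resident macrophages clear the remains. Islets also hold alpha, delta and PP endocrine cells, a dense bed of capillaries, pericytes and a few leukocytes.

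Markers of endocrine, acinar and immune cells were all read in these libraries, and the summed level was highest for beta cell genes (71469 and 67587 FPKM). Acinar genes summed to 5173 FPKM in the control and 5597 FPKM in the STZ library. Ins2 was the highest of the beta cell genes, at 57345 FPKM in the control library and 52596 in the STZ library, and 25 of 29 listed beta cell identity genes were included. Slc2a2 itself stood at 8.74 and 10.8 FPKM, below the 41.0 and 33.7 FPKM of the control and STZ libraries labelled Glut2L. The mRNA of the sorted protein thus goes against the gate's label, and the libraries are called by their labels throughout. Of 27 listed macrophage and monocyte genes 21 were included, and they summed to 2164 FPKM in the control and 2213 FPKM in the STZ library, against 74.1 and 84.7 FPKM in the corresponding libraries labelled Glut2L. Among them Cd68 read 201 and 269 FPKM, and Tyrobp read 340 and 365 FPKM. In a bulk library fewer cells of a type and less RNA per cell cannot be told apart.

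On the scale of log2(FPKM + 1), STZ minus control, a difference of 2-fold or more was read for 606 genes that were higher in the STZ library (6.83% of 8877) and 727 that were lower (8.19%), 1333 in all (15%). The median difference of all genes was -0.05, with quartiles of -0.42 and 0.34, and 4729 genes (53.3%) lay below 0. The counts of each gene list below are to be read beside these shares, since many lists are small. The share past 2-fold was smaller at higher levels: it was 16.5% of 2540 genes whose higher library read 5 to 10 FPKM, 13.6% of 755 genes from 50 to 100 FPKM, and 8.29% of 591 genes at 100 FPKM or more. The deposited intervals of the libraries lay apart for 11 of the higher genes (0.124%) and 35 of the lower genes (0.394%). Of 60 genes that read 5 to 5.1 FPKM in their higher library, just inside the minimum, 9 were past 2-fold, as were 9 of 57 rows just outside it, from 4.9 to 5 FPKM. The summed FPKM over all rows was 2935084 and 3428745, of which Gm20594, a row that was not included, held 61% and 68.5%. When FPKM was rescaled to equal sums over all rows, the median moved to -0.26 and the calls to 433 higher and 1052 lower, so the share of calls that were higher went from 45.5% to 29.2%.

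**Figure D1:**
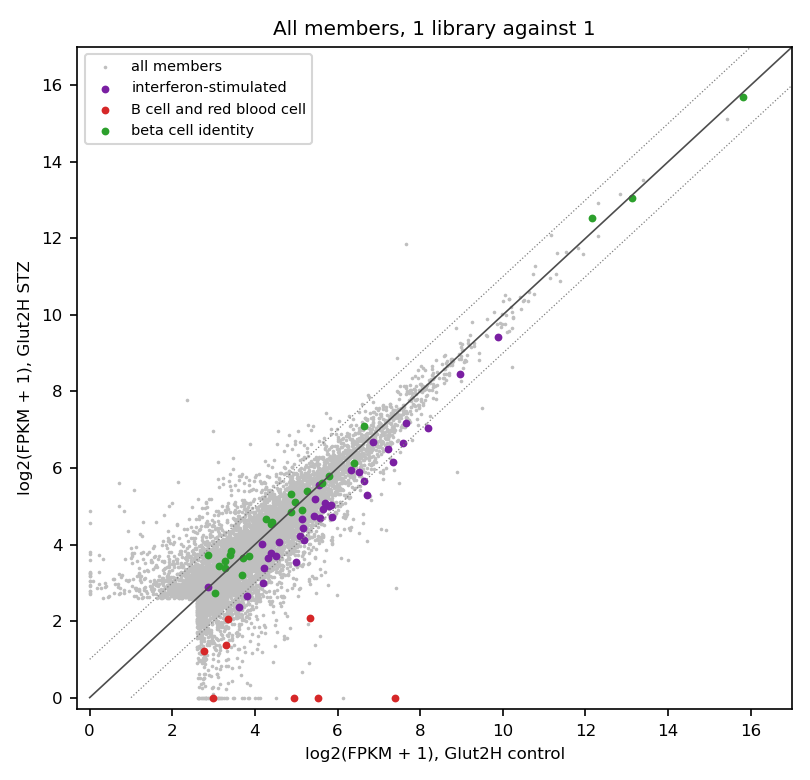
Level of each of the 8877 genes in the control library (horizontal axis) and in the STZ library (vertical axis), both as log2(FPKM + 1), with a solid line of equality and dotted lines at 2-fold. Interferon-stimulated genes (purple) lie mostly below the line, the B cell and red blood cell genes (red) lie below the lower dotted line, and the beta cell identity genes (green) all lie between the dotted lines.

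Interferon-stimulated genes were lower in the STZ library as a group. All 36 listed genes were included, 34 of them lay below 0, 9 were at least 2-fold lower and 0 were 2-fold higher, and their median log2 difference was -0.74 beside -0.05 for all genes. Their summed level was 3706 FPKM in the control and 2357 FPKM in the STZ library. These genes are switched on when interferon receptors activate transcription factors that bind the interferon-stimulated response element (ISRE) in their promoters. The count of lower genes was 16 with FPKM rescaled to equal sums over all rows, where all 36 lay below 0, and 5 with a pseudocount of 5 FPKM. With only genes annotated as protein-coding, 8 of 35 were lower. The median stayed between -0.95 and -0.65 under the 11 alternative settings that gave it. The deposited intervals of the libraries overlapped for each of the 36 genes.

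The letters of the ISRE core (GAAA, any 2 bases, then GAAA, on either strand) were looked for in RefSeq promoter windows (GRCm38.p6) that run from 250 bases before to 50 bases after each start. Of the 36 genes 27 had a window, and 16 of those windows (59.3%) held the letters. Over all 32851 windows the share was 3.44%, and over the 6852 genes of this comparison that had a window it was 4.12%. The list was made of genes known to respond to interferon, so its share does not bear on the difference between the libraries. The 200 bases before the start are shown for the 5 interferon-stimulated genes that were at least 2-fold lower and held the letters there. These 5 share the letters because they were chosen for them. Irf1 was also at least 2-fold lower, and its window lacked the letters. Mx2, Iigp1 and Usp18 were lower too and had no window, while Oas1a held the letters and was level in the libraries. The sequences are written 5′ to 3′ on the strand of the gene, with the matched letters in capitals. The matches are a description of the letters and not of binding.
Ifit3, chr19:34583329-34583528, plus strand: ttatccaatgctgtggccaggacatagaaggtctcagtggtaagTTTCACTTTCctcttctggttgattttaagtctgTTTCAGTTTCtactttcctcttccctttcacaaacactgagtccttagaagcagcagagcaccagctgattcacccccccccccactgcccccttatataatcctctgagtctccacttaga
Isg15, chr4:156200819-156201018, minus strand: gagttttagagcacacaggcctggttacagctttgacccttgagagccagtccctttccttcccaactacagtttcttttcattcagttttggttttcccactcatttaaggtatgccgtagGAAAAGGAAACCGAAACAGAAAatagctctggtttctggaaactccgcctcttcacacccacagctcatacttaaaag
Rsad2, chr12:26456453-26456652, minus strand: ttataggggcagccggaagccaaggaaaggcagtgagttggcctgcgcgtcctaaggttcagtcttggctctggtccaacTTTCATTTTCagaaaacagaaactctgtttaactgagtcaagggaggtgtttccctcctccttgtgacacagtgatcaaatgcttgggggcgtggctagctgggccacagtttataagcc
Gbp5, chr3:142496734-142496933, plus strand: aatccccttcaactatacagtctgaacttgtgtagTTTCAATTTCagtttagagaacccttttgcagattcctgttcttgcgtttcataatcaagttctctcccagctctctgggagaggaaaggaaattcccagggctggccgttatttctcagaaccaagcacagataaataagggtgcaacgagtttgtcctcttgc
Gbp7, chr3:142530136-142530335, plus strand: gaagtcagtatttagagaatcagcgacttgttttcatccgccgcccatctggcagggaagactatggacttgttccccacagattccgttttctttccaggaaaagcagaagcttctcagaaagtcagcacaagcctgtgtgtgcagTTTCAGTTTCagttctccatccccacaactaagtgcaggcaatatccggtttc

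Ifit3 holds 2 matches, which begin 156 and 122 bases before the start, and Isg15 holds 3 overlapping matches that begin 78, 72 and 66 bases before it. Rsad2, Gbp5 and Gbp7 hold 1 match each, at 120, 165 and 53 bases. Outside the interferon list, 266 genes held the letters in their window. Their median log2 difference was -0.07, and 9.02% of them were at least 2-fold lower, beside 7.79% of the 6570 genes without the letters.

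Among the genes whose promoters are shown, Ifit3, an antiviral adaptor, stood at 104.5 FPKM in the control and 38.4 in the STZ library, a log2 difference of -1.42. Isg15, a ubiquitin-like modifier, stood at 160 and 70.1 FPKM (-1.18). Rsad2, which encodes the antiviral enzyme viperin, stood at 292 and 132 FPKM (-1.14). The guanylate-binding protein genes Gbp5 and Gbp7, whose products attack pathogen vacuoles, were lower by similar amounts. Gbp5 read 11.3 and 4.13 FPKM (-1.26) and Gbp7 read 13.1 and 5.28 FPKM (-1.17).

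Mx2, a gene of the dynamin-like GTPase family, showed the lowest value of the list, -1.46, from 31.1 FPKM in the control to 10.7 in the STZ library. The remaining genes past 2-fold were Iigp1, an immunity-related GTPase (17.3 and 7.04 FPKM), Irf1, a transcription factor of the interferon response (57.6 and 25.5 FPKM), and Usp18, which removes Isg15 from proteins and damps receptor signalling (35.6 and 16.5 FPKM). Stat2, a signal transducer of the pathway, missed 2-fold at -0.85. Mx1 (46.0 and 46.1 FPKM) and Oas1a (6.32 and 6.38 FPKM) were level in the libraries, both at 0.01. In the Glut2L pair, which came from the same groups of mice, 14 of the 36 genes were at least 2-fold lower, 1 was higher and the median was -0.83, beside 5.68% lower, 4.72% higher and a median of -0.02 for all genes of the comparison in that pair. Isg15 read 22.4 and 12.1 FPKM there, and Rsad2 26.3 and 10.2 FPKM.

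**Figure D2:**
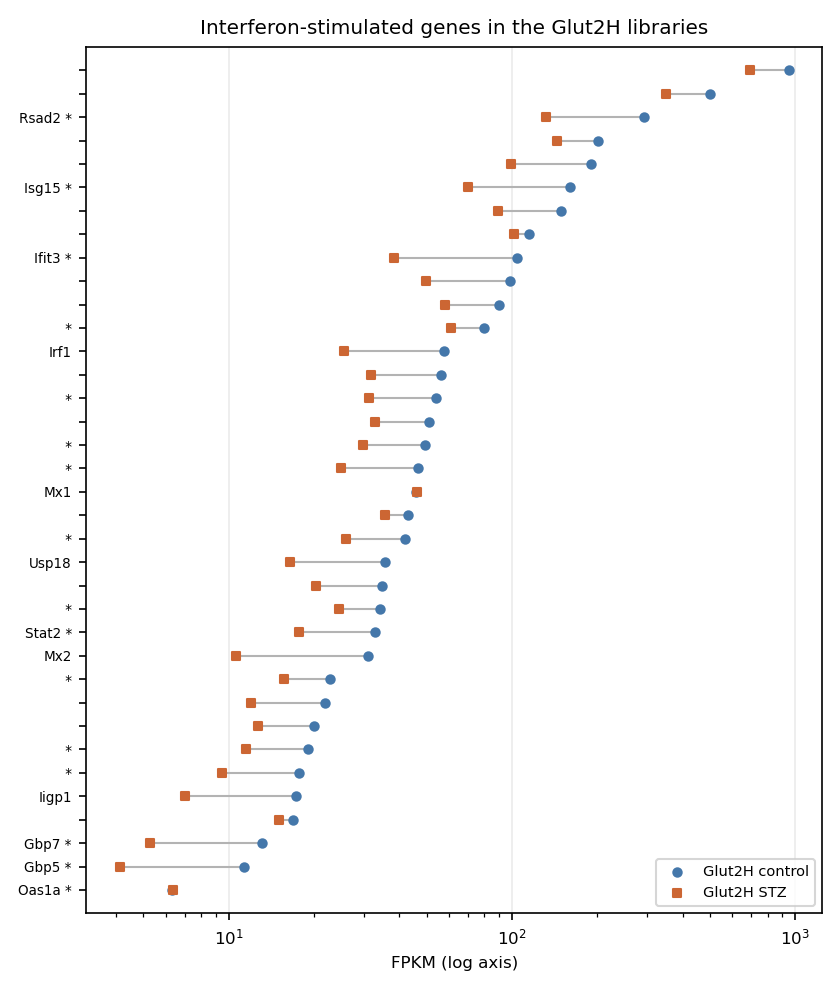
Level of the 36 interferon-stimulated genes in the control library (blue circles) and the STZ library (orange squares), in FPKM on a log axis, ordered by control level, with names for the genes described in the text. An asterisk marks the 16 genes whose promoter window holds the ISRE letters. The STZ library is lower for 34 genes and level for Mx1 and Oas1a.

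Genes of acute inflammation were also lower in the STZ library. Of 22 listed genes 16 were included, 4 were at least 2-fold lower and 0 higher, and the median was -0.44. Il6, the cytokine interleukin 6 (ENSMUSG00000025746, chr5:30013114-30019981), stood at 97.9 FPKM in the control and 22.5 in the STZ library, or 4.35 times as much in the control. Its deposited intervals, 41.1 to 154 and 7.81 to 37.2 FPKM, did not overlap. Socs3, the feedback inhibitor that IL-6 and its relatives induce through STAT3, stood at 47.3 and 8.23 FPKM (-2.39). Tnfaip3, which restrains NF-kB, and Icam1, the leukocyte adhesion receptor, were both at -1.07. The letters of an NF-kB site (GGGA, any base, then TTTCC, on either strand) were in 2 of the 12 windows of this list (16.7%), beside 0.54% of the 6852 genes of this comparison that had a window. The list was made of known genes of inflammation, so this share does not bear on the difference between the libraries.

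Other genes of the inflammatory list did not share that difference. The interleukin 1 genes Il1a (13.8 and 11.0 FPKM) and Il1b (14.3 and 19.8 FPKM) differed by less than 2-fold and in opposite directions. Tnf read 11.5 and 13.2 FPKM. The highest value was that of Tnfaip2, a TNF-induced gene of endothelial and myeloid cells, at 51.4 and 94.9 FPKM (0.87).

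Of 31 chemokine and receptor genes 21 were included, 4 were at least 2-fold lower and 0 higher, and the median was -0.22. With only genes annotated as protein-coding, 3 of 20 were lower. Ccl3, a monocyte chemokine, stood at 72.4 FPKM in the control and 25.8 in the STZ library (-1.45). The neutrophil chemokines Cxcl1 (49.0 and 17.4 FPKM) and Cxcl5 (34.6 and 13.0 FPKM) and the interferon-induced chemokine gene Cxcl11 (21.6 and 8.81 FPKM) were lower by -1.44, -1.35 and -1.21. Ccl2, the main monocyte attractant, stood at 279 and 140 FPKM and missed 2-fold at -0.99. Ccl5, the highest chemokine of the list, was nearly level at 629 and 583 FPKM, and Ccl6 was the highest by difference, at 6.13 and 11.1 FPKM (0.76).

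MHC class I and antigen processing genes lay slightly below the other genes. Of 20 listed genes 18 were included, 16 lay below 0, 1 was at least 2-fold lower, and the median was -0.30. That gene was Psmb9, an interferon-induced subunit of the immunoproteasome, at 57.5 and 15.5 FPKM (-1.82). Its partner subunits Psmb8 (38.8 and 34.3 FPKM) and Psmb10 (34.0 and 28.6 FPKM) were within 2-fold, and 1 other row shares the locus of Psmb9. B2m, the shared light chain of class I molecules, read 2254 and 1998 FPKM. Tap2, which pumps peptides into the endoplasmic reticulum, was the highest at 0.12.

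The summed level of macrophage markers was similar in the libraries. Of the 21 markers 0 were at least 2-fold higher and 4 were lower. Their median was 0.05, which turned to below 0 with FPKM rescaled to equal sums over all rows, with no filter on low values, and over genes whose locus no other row shares. The lower genes encode an antibacterial enzyme and 3 surface receptors. Lyz1, a lysozyme, stood at 21.2 FPKM in the control and 2.71 in the STZ library (-2.58), with intervals that did not overlap. Marco, a scavenger receptor, stood at 14.7 and 2.57 FPKM (-2.14), also with intervals apart. Fcgr1, the high-affinity IgG receptor, read 45.0 and 16.4 FPKM, and Lyve1, a hyaluronan receptor of vessel-associated macrophages and lymphatic vessels, read 11.8 and 3.92 FPKM. Other markers were within 2-fold: Cd14 read 163 and 169 FPKM, Mpeg1 read 74.7 and 81.6 FPKM, and Lyz2 read 332 and 250.4 FPKM.

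Retnla, a secreted protein that interleukin 4 induces in alternatively activated macrophages, was higher in the STZ library. It stood at 173 FPKM in the control and 465 in the STZ library, 2.69 times as much, with overlapping intervals. Of 18 genes of alternative activation 9 were included, Retnla alone was at least 2-fold higher, and 2 were lower. Those were Clec10a, a lectin (5.32 and 1.26 FPKM), and Socs1, an inhibitor of cytokine signalling (15.9 and 5.30 FPKM). Arg1, the arginase of this state, read 13.96 and 19.95 FPKM, and Ear2, a ribonuclease, read 31.0 and 56.9 FPKM. The list's median of 0.04 turned to below 0 under 2 of the 11 settings, and was 0.36 with a minimum of 1 FPKM and 0.86 with a minimum of 20 FPKM, where 3 genes were left.

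Genes of the lysosome and of the uptake of dying cells lay above 0 as a group, with 22 of 28 included genes above 0 and a median of 0.21, which became -0.01 with FPKM rescaled to equal sums over all rows. Ctsh, a lysosomal protease, was the gene past 2-fold, at 56.0 and 116 FPKM (1.04). Apoe, the lipid carrier that macrophages secrete, stood at 5074 and 7834 FPKM (0.63). Gpnmb, a marker of lipid-laden phagocytes, read 74.5 and 120 FPKM. Axl and Mertk, receptors that bind dying cells, were below 0 and within 2-fold. Axl stood at 244 and 138 FPKM (-0.81) and Mertk at 8.93 and 5.02 FPKM (-0.72).

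Complement genes differed in both directions. Of 12 included genes 5 were at least 2-fold lower and 1 was higher, with a median of -0.09 that turned to above 0 under 2 settings. With a pseudocount of 5 FPKM 1 gene was lower, over genes whose locus no other row shares 1 was lower, and after centring all differences on their median 3 were lower. C3, the central component, stood at 136 and 51.0 FPKM (-1.40). The genes of its convertases, C2 (16.6 and 7.63 FPKM) and Cfb (34.6 and 16.8 FPKM), the alternative pathway stabiliser Cfp (11.2 and 3.30 FPKM) and the membrane regulator Cd55 (7.13 and 1.42 FPKM) were lower too. The recognition genes C1qa (154 and 194 FPKM), C1qb (99.8 and 104.0 FPKM) and C1qc (115 and 154 FPKM), which macrophages make, were within 2-fold. C3 and Cd55 each share their locus with 1 other row. C2 and Cfb lie side by side in the genome and 4 other rows share their locus, so fragments of one could be counted for the other.

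MHC class II genes, which mark antigen-presenting cells, were within 2-fold in all 9 of 22 listed genes that were included, with a median of 0.12 that turned to below 0 under 4 settings. Cd74, the invariant chain, read 1027 and 1305 FPKM, H2-Aa 301 and 309 FPKM, and Fscn1, a marker of mature dendritic cells, 26.8 and 15.6 FPKM.

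**Figure D3:**
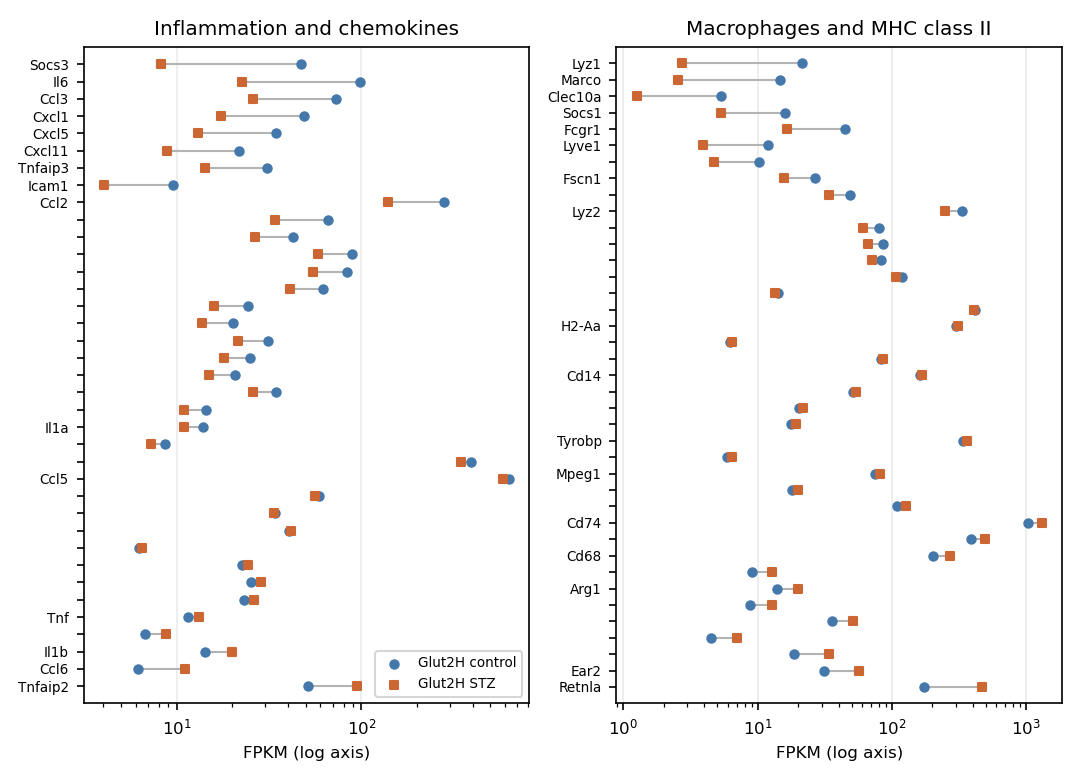
Left, genes of inflammation and chemokines; right, macrophage, alternative activation and MHC class II genes, each in the control library (blue circles) and the STZ library (orange squares) in FPKM on a log axis, ordered by log2 difference, with names for the genes described in the text. Socs3, Il6, Lyz1 and Marco stand at the low end, Retnla at the high end, and Cd14, H2-Aa and Ccl5 are nearly level.

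Transcripts of B cells were low in the STZ library, at 3.23 FPKM or less for the included genes of the list. Igkc, the kappa light chain constant region (ENSMUSG00000076609, chr6:70726435-70726966), was at 167 FPKM in the control library and listed at 0 in the STZ library. Ighm, the heavy chain of IgM, stood at 39.5 and 3.23 FPKM. All 5 of the B cell genes that were included were at least 2-fold lower, with a median of -1.91. The others were Cd79a (8.83 and 1.61 FPKM) and Cd79b (5.75 and 1.32 FPKM), which pair with the B cell receptor, and the transcription factor Pax5 (9.21 and 3.17 FPKM). Each of the 5 reached the minimum of 5 FPKM in the control library alone, so the rule itself favoured lower values among them. With no filter on low values 13 listed genes were read, and all 13 lay below 0, 8 of them past 2-fold, among them Ms4a1, a B cell surface protein, which was listed at 0 in the STZ library. Over 12 immunoglobulin genes the summed level was 397 and 12.0 FPKM, with 11 lower and 1 higher (Igkv3-1, listed at 0 in the control library and at 8.72 FPKM in the STZ library). A value of exactly 0 in these tables can be a failed estimate, since all 37 mitochondrially encoded rows were listed at 0 in both libraries.

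Hemoglobin transcripts, which mark red blood cells, were read above 0 in the control library alone. Hba-a1 stood at 45.0 FPKM, Hbb-bs at 29.6 FPKM and Hbb-bt at 6.93 FPKM there, and each was listed at 0 in the STZ library. The 3 genes were also listed at 0 in both libraries labelled Glut2L. The 9 immunoglobulin genes and the 3 hemoglobin genes with intervals apart make up 12 of the 35 lower genes of that kind.

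Other leukocytes were close to the limit of these libraries. Of 24 T and NK cell genes 12 were listed at 0 in both libraries, among them Trac and Gzma, and 2 were included. Il7r, a receptor that innate lymphoid cells and T cells share, read 27.6 and 28.8 FPKM, and Cd4, which macrophages can also express, read 9.68 and 6.22 FPKM. Of 18 neutrophil and mast cell genes 11 were listed at 0 in both libraries, S100a8 and S100a9 included, and Mmp9, a gelatinase, was the gene past the minimum, at 6.89 and 0.21 FPKM. The part of leukocytes other than macrophages in the differences of the interferon, inflammation and chemokine genes was not tested.

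Genes of capillary endothelium were lower in the STZ library. Of 22 listed genes 16 were included, 6 were at least 2-fold lower and 0 higher, and the median was -0.52, between -0.71 and -0.35 under the 11 settings. Cdh5, the adhesion molecule of endothelial junctions, stood at 24.0 and 10.1 FPKM (-1.18). Plvap, which forms the diaphragms of fenestrated capillaries, stood at 60.3 and 26.5 FPKM (-1.16). Flt1, a VEGF receptor, stood at 23.9 and 7.86 FPKM (-1.49), Ramp2, a receptor partner of adrenomedullin, at 11.2 and 2.66 FPKM, and Ly6c1 at 6.595 and 2.42 FPKM. Aplnr, the apelin receptor, read 6.33 FPKM and was listed at 0 in the STZ library. Other markers differed less. Kdr, the main VEGF receptor, read 30.2 and 22.2 FPKM, Esm1 read 57.7 and 54.97 FPKM, and Egfl7 and Esam were both at 0.80.

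Growth factors that act on vessels and matrix were mixed. Of 15 included genes 4 were at least 2-fold lower and 1 was higher, and the median was -0.45. Fgf2, basic fibroblast growth factor, stood at 38.8 and 7.30 FPKM (-2.26), although 7 other rows share its locus. Angptl4, a lipase inhibitor, stood at 14.1 and 2.88 FPKM, Pdgfa, a ligand for mesenchymal cells, at 27.4 and 11.2 FPKM, and Vegfb at 5.48 and 1.91 FPKM. Vegfa, the main endothelial growth factor of beta cells, was within 2-fold at 71.7 and 87.8 FPKM. Ctgf, a matrix protein that TGF-beta and YAP induce, was the higher gene, at 54.9 and 158 FPKM (1.505).

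Of 19 included genes of stromal cells, pericytes and smooth muscle, 3 were at least 2-fold higher, 1 was lower and 8 lay below 0. Over all genes 6.83% were higher and 8.19% lower. With a pseudocount of 5 FPKM 1 gene of the list was higher and 0 were lower. After centring all differences on their median 3 were higher and 0 lower. Acta2, smooth muscle actin, stood at 6.402 FPKM in the control and 22.4 in the STZ library (1.66). Tagln, an actin-binding protein, stood at 12.7 and 29.3 FPKM (1.14), and Myh11, smooth muscle myosin, at 2.79 and 6.65 FPKM (1.01). The lower gene was Dcn, a small proteoglycan of fibroblasts, at 92.8 and 45.1 FPKM (-1.03), and the collagen genes Col1a1 (51.5 and 54.7 FPKM) and Col3a1 (26.0 and 26.9 FPKM) were nearly level. The median of the list was 0.08 and its summed level 1028 and 958 FPKM. The median turned to below 0 with FPKM rescaled to equal sums over all rows and with no filter. Among 30 matrix genes the laminin subunits Lama5 (5.28 and 19.9 FPKM) and Lamb1 (24.0 and 57.8 FPKM), which belong to the basement membrane, were at least 2-fold higher, and Mmp9 was lower.

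The beta cell programme of these libraries differed little. Of 25 included identity genes 0 were past 2-fold in either direction, beside 15% of all genes, and the median was 0.14, which turned to -0.08 with FPKM rescaled to equal sums over all rows. Ins1 stood at 8955 and 8471 FPKM and Ins2 at 57345 and 52596 FPKM. Their deposited intervals were wide, at 1155 to 16695 and 1061 to 15873 FPKM for Ins1. For Ins2 they were 30 to 148003 and 170.1 to 142795 FPKM. Slc2a2 differed by 0.28. The highest was Foxa2, a transcription factor of the pancreatic lineage, at 6.23 and 12.3 FPKM (0.88). The maturity factor Mafa was level at 48.4 and 47.8 FPKM, Pdx1 read 12.2 and 11.5 FPKM, and Nkx6-1 read 18.4 and 24.4 FPKM. In the Glut2L pair Ins2 read 294540 and 175841 FPKM, and there too 0 of the 25 genes were past 2-fold, beside 10.4% of all genes of the comparison.

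Among the other islet hormones Gcg, glucagon, showed the largest difference. It stood at 2287 FPKM in the control and 4337 in the STZ library (0.92), and at 4170 and 9893 FPKM in the Glut2L pair. Of 7 included alpha cell genes 0 were past 2-fold and 6 lay above 0, with a median of 0.45. Ttr, transthyretin, was the gene below 0, at 9.12 and 5.82 FPKM. Sst, somatostatin, stood at 1702 and 2157 FPKM, Ppy, pancreatic polypeptide, at 2483 and 2149 FPKM, and Pyy at 1424 and 1305 FPKM. Over the 6 included genes of delta, PP and enterochromaffin-like cells the median was -0.17, with Rbp4 the highest (39.8 and 71.3 FPKM) and Tph1, the serotonin-synthesis enzyme, the lowest (27.9 and 22.9 FPKM).

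**Figure D4:**
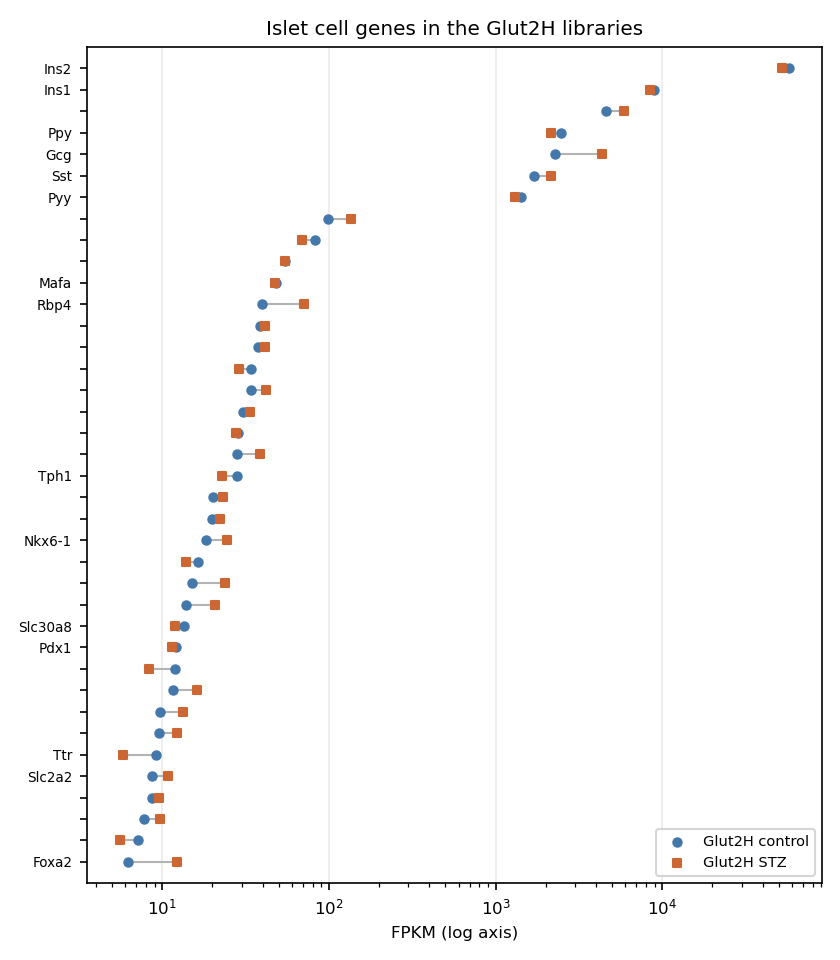
Level of the beta, alpha and other endocrine cell genes in the control library (blue circles) and the STZ library (orange squares), in FPKM on a log axis, ordered by control level, with names for the genes described in the text. The symbols lie close together for most genes, Ins2, Ins1, Mafa and Pdx1 among them, and Gcg and Foxa2 show the widest gaps.

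Genes of the secretory granule and of exocytosis stayed within 2-fold in 24 of 25 cases, and their median of 0.10 turned to below 0 under 2 settings. Unc13a, a priming factor of vesicle fusion, was the exception, at 11.9 and 25.04 FPKM (1.02), and 2 other rows share its locus. Chgb, a granin that drives granule formation, was the lowest, at 688 and 453 FPKM. The prohormone convertases Pcsk1 (85.6 and 100 FPKM) and Pcsk2 (73.5 and 96.3 FPKM) lay slightly above 0.

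The unfolded protein response, which protects the endoplasmic reticulum of insulin-making cells, showed 1 of 37 included genes past 2-fold. Syvn1, the ubiquitin ligase of ER-associated degradation, stood at 13.6 and 32.3 FPKM (1.19). The chaperone Hspa5, or BiP, read 519.5 and 609 FPKM, the stress factor Ddit3, or CHOP, read 85.0 and 91.3 FPKM, and Atf3 was the lowest at 91.1 and 60.6 FPKM (-0.58). The median was 0.10, and -0.12 with FPKM rescaled to equal sums over all rows.

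Genes of the response to DNA damage, taken over all those included, were not higher as a group in the library from the alkylating toxin. Of 25 included p53 targets and damage genes 0 were at least 2-fold higher and 3 were lower, with a median of -0.05, equal to that of all genes. Bbc3, the death-promoting protein PUMA, stood at 10.9 and 2.25 FPKM (-1.88). Atm, the kinase that senses double-strand breaks, stood at 13.5 and 4.44 FPKM (-1.41), and Rrm2b, a ribonucleotide reductase subunit, at 8.53 and 3.47 FPKM (-1.09). Cdkn1a, the cell cycle inhibitor p21, was the highest of the list at 29.9 and 43.8 FPKM (0.54). Mdm2, the ubiquitin ligase of p53, read 75.2 and 92.6 FPKM. At a minimum of 20 FPKM the median of the list turned to 0.23, and 0 of 13 genes were past 2-fold. In the Glut2L pair the list had a median of 0.26, and 6 of its 25 genes lay below 0, beside 51.4% of all genes. There 2 were at least 2-fold higher and 2 were lower. That difference between the pairs was not tested.

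Among 15 genes of alkylation and base excision repair, 1 was at least 2-fold higher and 1 lower, and the median was -0.28. Parp3, a poly(ADP-ribose) polymerase of strand breaks, stood at 41.8 and 7.80 FPKM (-2.28). Parp1, the enzyme that STZ damage is known to activate, was within 2-fold at 9.47 and 7.61 FPKM. Neil1, a DNA glycosylase, stood at 2.17 and 7.36 FPKM (1.40). Apex1, the nuclease of abasic sites, read 74.1 and 37.8 FPKM and missed 2-fold at -0.95, and Mpg, which removes alkylated bases, read 5.91 and 10.9 FPKM (0.78).

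Of 19 genes of NAD metabolism 7 were included. Nmnat3, which makes NAD in mitochondria, was higher, at 1.79 and 11.2 FPKM (2.13), and Nadsyn1, NAD synthetase, was lower, at 6.25 and 1.76 FPKM (-1.39). Nampt, the rate-limiting enzyme of NAD salvage, read 38.6 and 34.0 FPKM. In the Bcl2 family and cell death list 3 of 26 included genes were at least 2-fold lower, beside 8.19% of all genes, and 0 were higher. Beside Bbc3 these were Birc3, an inhibitor of apoptosis that NF-kB induces (57.0 and 17.2 FPKM), and Casp4, the caspase that senses bacterial lipid (29.0 and 13.0 FPKM). Bcl2l1, which encodes the survival protein Bcl-xL, was the highest, at 17.02 and 26.2 FPKM. The medians were -0.01 and -0.17, and both turned sign under at least 1 setting.

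Pklr, the liver-type pyruvate kinase, which beta cells also express, showed the largest difference of the glucose response and glycolysis lists (ENSMUSG00000041237, chr3:89136142-89146784). It stood at 1.09 FPKM in the control and 42.1 in the STZ library (4.37), with intervals of 0 to 3.65 and 2.75 to 51.3 FPKM that overlapped, and at 13.9 and 44.2 FPKM in the Glut2L pair. Pklr is a classic target of ChREBP, the glucose-sensing transcription factor encoded by Mlxipl. Mlxipl itself stood at 3.60 and 12.5 FPKM (1.55), and Bhlhe40, a circadian repressor on the same list, at 21.97 and 54.6 FPKM (1.27). Of the 17 included genes of the glucose response 3 were at least 2-fold higher and 0 lower, with a median of 0.25. Other rows share the loci of Pklr and Bhlhe40. Over genes whose locus no other row shares, 1 of 10 was at least 2-fold higher. Txnip, the most used marker of ChREBP activity, was within 2-fold at 215 and 262 FPKM, and Arrdc4, its relative, was level at 16.4 and 16.9 FPKM. Gpd1 was the lowest gene, at 5.43 and 2.68 FPKM.

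Of 27 included genes of glycolysis and pyruvate use 4 were at least 2-fold higher and 1 lower. Beside Pklr these were Hk1, a high-affinity hexokinase that mature beta cells normally lack (13.8 and 97.7 FPKM, 2.74), Pdk1, which blocks pyruvate dehydrogenase (1.04 and 12.4 FPKM, 2.72), and Mpc1, a subunit of the mitochondrial pyruvate carrier (6.01 and 33.7 FPKM, 2.31). Ldhb, a lactate dehydrogenase subunit, stood at 5.90 and 0.99 FPKM (-1.79). The core of the pathway was near level, with Aldoa at 438 and 458 FPKM, Pkm at 439 and 425 FPKM and Pgk1 at 43.5 and 52.1 FPKM. Mpc2, the partner of Mpc1, did not share its difference, at 7.90 and 6.53 FPKM. The median of 0.02 turned to below 0 under 4 settings. Hk1 shares its locus with 1 other row. Over genes whose locus no other row shares, 1 of 16 was at least 2-fold higher and 1 lower.

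Nuclear genes of the respiratory chain lay mostly above 0, in 37 of 49 cases, with a median of 0.17 that became -0.05 with FPKM rescaled to equal sums over all rows. Those past 2-fold were Cox5a, a subunit of cytochrome oxidase (9.53 and 27.6 FPKM, 1.44), and Atp5j, of ATP synthase (46.1 and 103 FPKM, 1.14), and other rows share the locus of each. Atp5o was the lowest, at 123 and 81.3 FPKM, with 9 rows on its locus. In the Glut2L pair the same 49 genes had a median of -0.13, with 37 below 0, beside 51.4% of all genes, and that difference between the pairs was not tested. Of 25 citrate cycle genes 0 were past 2-fold, from Idh3b at -0.69 to the carrier Slc25a11 at 0.86.

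Genes of hypoxia, which overlap with glycolysis, held 2 higher and 2 lower genes among 19, beside 6.83% and 8.19% of all genes. Pdk1 and Bnip3l, a mitophagy receptor (7.71 and 27.5 FPKM, 1.71), were higher. Ankrd37 (15.9 and 2.05 FPKM, -2.47) and Car9, the membrane carbonic anhydrase (5.93 FPKM in the control and listed at 0 in the STZ library), were lower.

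Genes of cholesterol and fatty acid synthesis lay mostly below 0, in 18 of 24 cases, with 3 at least 2-fold lower, 0 higher and a median of -0.32. Over all genes 53.3% lay below 0 and 8.19% were at least 2-fold lower. Srebf1, the lipogenic transcription factor that insulin induces, stood at 51.5 and 13.4 FPKM (-1.86). Hsd17b7, a late enzyme of cholesterol synthesis, stood at 5.51 and 1.64 FPKM (-1.30). Cyp51 was the highest, at 8.30 and 15.6 FPKM.

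Digestive enzyme transcripts of acinar cells stood at similar levels in the libraries. Of 22 included genes 1 was at least 2-fold higher and 0 lower, with a median of 0.01 that turned to below 0 with FPKM rescaled to equal sums over all rows. Ctrb1, chymotrypsinogen, read 1083 and 1018 FPKM, Pnlip, pancreatic lipase, 443 and 446 FPKM, and Zg16, a granule lectin, was the lowest at 220 and 170 FPKM. Try5, a trypsinogen, stood at 65.1 and 148 FPKM (1.18). The summed level of the 22 genes was 5173 and 5597 FPKM, while in the Glut2L pair it was 4040 and 508 FPKM and 21 of the 22 genes were at least 2-fold lower, beside 5.68% of all genes there. That difference between the pairs was not tested. Trypsinogen genes form a family of close copies, and the division of fragments among them is uncertain.

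In the Reg family, secreted proteins of acinar stress, 3 of 7 genes were included. Reg1 stood at 114 and 211 FPKM (0.88), Reg3b at 4.67 and 7.73 FPKM (0.62), and Reg2 at 7.28 FPKM in the control and listed at 0 in the STZ library, with intervals apart. Duct and epithelial genes were within 2-fold in all 12 cases, with a median of -0.22. Krt8 was the lowest, at 158 and 115 FPKM, and Tspan8 the highest, at 2.36 and 5.06 FPKM. Sox9, the duct and progenitor factor, was under the minimum, at 0.84 and 1.26 FPKM.

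Among 11 included genes of dedifferentiation and progenitors 3 were at least 2-fold lower and 0 higher, with a median of -0.29 that turned to above 0 at a minimum of 20 FPKM. Gast, gastrin, which dedifferentiating beta cells can express, was at 10.2 FPKM in the control and listed at 0 in the STZ library. Aldh1b1, an aldehyde dehydrogenase of pancreatic progenitors, stood at 22.4 and 2.29 FPKM (-2.83), and Penk, proenkephalin, at 15.6 and 4.74 FPKM (-1.53). Aldh1a3, a marker of failing beta cells, was within 2-fold at 8.35 and 5.66 FPKM. Neurog3, Nanog and Lgr5 were under the minimum in both libraries. Of 17 genes that beta cells normally keep silent, 3 were lower and Hk1 was higher. The lower genes were Igfbp4, an IGF-binding protein (9.12 and 1.03 FPKM), Parp3, and Smad3, a TGF-beta mediator (18.7 and 5.22 FPKM).

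Genes of S phase and mitosis were low in both libraries. Of 35 listed genes 8 were included, 1 was at least 2-fold lower and 0 higher, with a median of -0.23. Cenpa, the centromeric histone, stood at 7.06 and 1.69 FPKM (-1.58), Pcna, the replication clamp, read 47.1 and 44.1 FPKM, and Mki67 was under the minimum at 1.38 and 0.94 FPKM. In the list of cyclins, kinases and inhibitors of G1, 3 of 13 included genes were higher and 0 lower, beside 6.83% and 8.19% of all genes. The median was 0.42. All 3 restrain entry into S phase. Rb1, the retinoblastoma protein, stood at 15.1 and 52.96 FPKM (1.75), its relative Rbl2 at 3.34 and 11.4 FPKM (1.52), and Cdkn2c, the inhibitor p18, at 2.13 and 6.5 FPKM (1.26). Other rows share the loci of Rb1 and Rbl2, and the intervals of Rb1 overlapped. Rbl2 and Cdkn2c reached the minimum of 5 FPKM in the STZ library alone. With a pseudocount of 5 FPKM 1 of the 13 genes was higher, and over genes whose locus no other row shares 1 of 6 was. The cyclin genes Ccnd1 (5.14 and 3.85 FPKM) and Ccnd2 (29.8 and 27.1 FPKM) were within 2-fold.

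Early response and stress genes lay a little below the other genes. Of 24 included immediate early genes 18 lay below 0, with a median of -0.33. Myc stood at 62.6 and 20.8 FPKM (-1.55) and Fosb at 10.8 and 4.04 FPKM (-1.23), while Ctgf was the gene past 2-fold above. Fos read 108 and 67.3 FPKM and Egr1 47.6 and 35.9 FPKM. These genes respond to cell handling within minutes, and the part of the sort in their levels was not tested. In the heat shock list 1 of 22 genes was past 2-fold, the inducible chaperone Hspa1a (10.4 and 3.92 FPKM, -1.21). Glucocorticoid-responsive genes were within 2-fold in all 14 cases, with a median of -0.16.

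Antioxidant genes showed no common direction: of 33 included genes 1 was higher, 1 was lower, and the median of -0.01 turned to above 0 under 6 settings. The genes past 2-fold were Glrx2, a mitochondrial glutaredoxin (7.80 and 18.7 FPKM), and Gpx7, a peroxidase of the endoplasmic reticulum (7.32 and 1.36 FPKM). Hmox1, heme oxygenase, read 787 and 943 FPKM. Of 14 zinc transporter and metallothionein genes Slc39a7, a transporter in membranes of the secretory pathway, was lower (178 and 47.4 FPKM, -1.89). Its locus is shared with 2 other rows. Slc30a8, which loads zinc into insulin granules, read 13.5 and 11.9 FPKM. In the insulin and IGF list Mtor, the growth kinase, was higher (3.75 and 14.6 FPKM), Igfbp4 and the receptor Igf2r (44.7 and 21 FPKM) were lower, and the median was -0.25.

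The 64 cytosolic ribosomal protein genes, a reference of abundant and evenly regulated transcripts, were all within 2-fold, with a median of -0.11 and a range from Rpl7a at -0.72 to Rps27 at 0.48. Histone genes varied more. Of the 19 included genes of the list, which does not hold every histone gene, 5 were higher and 2 lower, from Hist1h2an, at 14.9 FPKM in the control and listed at 0 in the STZ library, to Hist1h2ab, listed at 0 in the control and at 8.11 FPKM in the STZ library. The others of the list past 2-fold were H3f3a, a replacement histone that is made outside S phase (26.4 and 70.6 FPKM, 1.39), and Hist1h4i, Hist1h3a, Hist2h2ac and Hist1h4h. Replication-dependent histone genes are near-identical copies, so fragments could be divided among them in different ways. Nuclear long noncoding RNAs were near level, with Malat1 at 10812 and 11820 FPKM and Neat1 at 382 and 381 FPKM. Airn, an imprinted RNA antisense to Igf2r, was the gene past 2-fold, at 1.17.

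**Figure D5:**
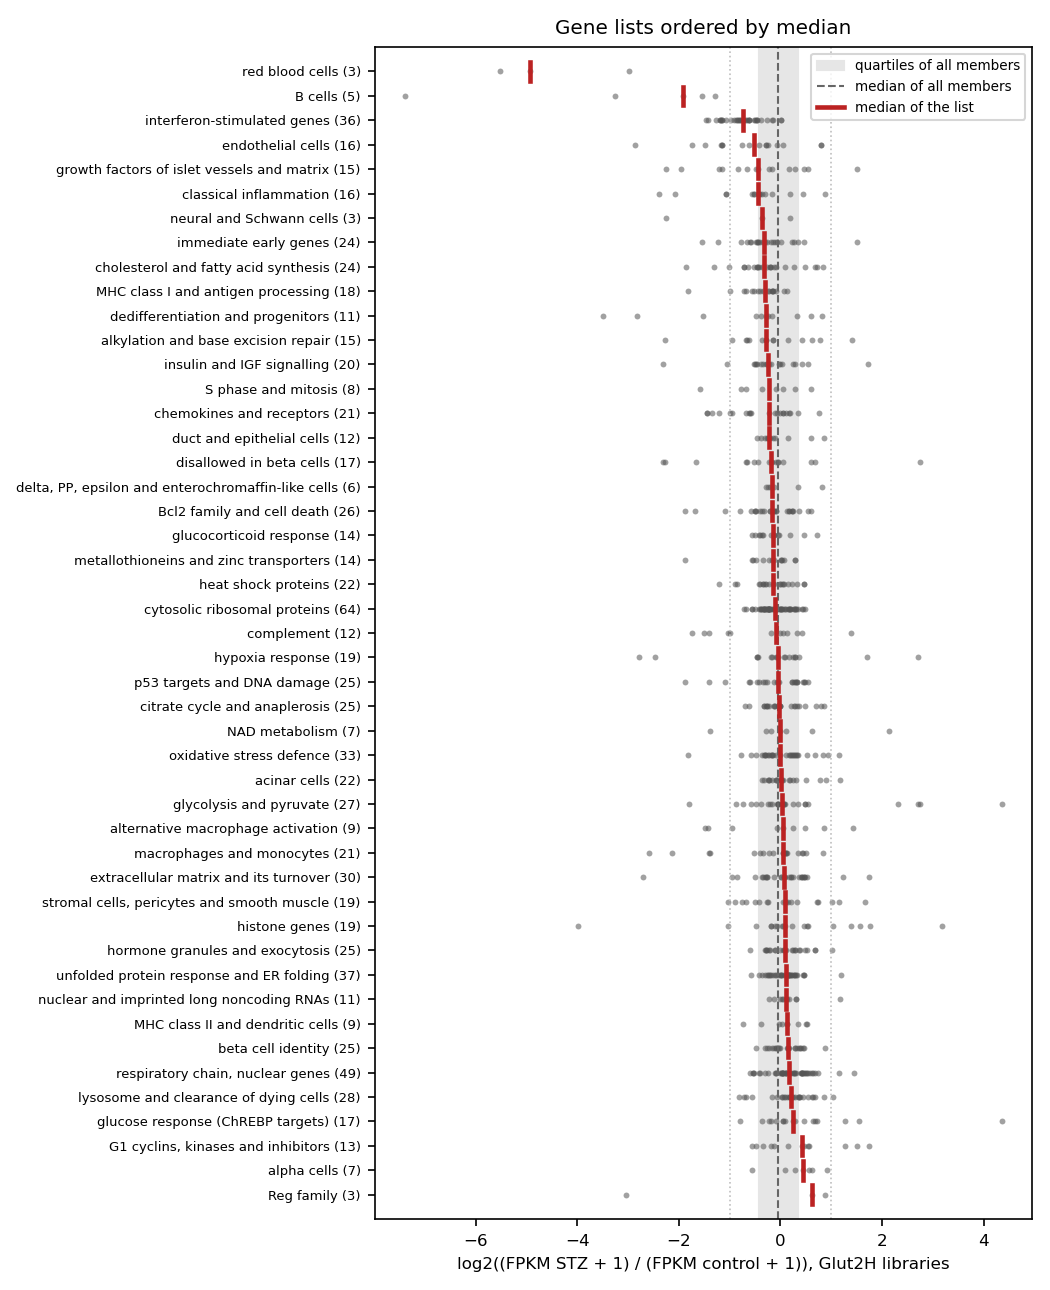
Log2 difference of each included gene (grey points) in the 47 lists with at least 3 genes, ordered by list median (red bars), with the number of genes in parentheses. The grey band spans the quartiles of all 8877 genes, the dashed line their median of -0.05, and the dotted lines 2-fold; red blood cell, B cell and interferon-stimulated genes stand at the low end.

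Igkc showed the lowest value of all 8877 genes. Among 8718 protein-coding genes, selenoprotein genes left out, the highest value was that of Tmsb15b2, a thymosin beta gene, at 4.10 FPKM in the control and 217 in the STZ library (5.42), with intervals apart and 2 other rows on its locus. Eps8l1, an actin regulator, stood at 0.65 and 47.4 FPKM (4.88), Kcnj13, an inward rectifier potassium channel, at 0.64 and 31.0 FPKM (4.29), and Eef2k, the kinase of elongation factor 2, at 6.88 and 125 FPKM (4.00). In the Glut2L pair Tmsb15b2 was at 251 and 145 FPKM, Eps8l1 at 4.98 and 4.63 FPKM, and Eef2k at 4.84 and 16.6 FPKM. The other genes among the 15 highest were Pklr, RP23-395P6.9, Zfp93, Fam221a, Gtf2h2, Lyrm7, Fam154b, Engase, Hist2h2ab, Dcxr and Hist1h2ab, from 4.56 for RP23-395P6.9 down to 3.19 for Hist1h2ab.

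At the other end, below Hba-a1 and Hbb-bs, stood Lars2, the mitochondrial leucyl-tRNA synthetase. It read 169 FPKM in the control and 6.296 in the STZ library (-4.55), with intervals apart and no other row on its locus, and 41.2 and 1.74 FPKM in the Glut2L pair (-3.94). Nudt1, which clears oxidised nucleotides, stood at 38.6 and 0.88 FPKM (-4.39), and at 10.4 FPKM and listed at 0 in the Glut2L pair. Abcb1a, a multidrug efflux pump that is abundant in capillaries, stood at 42.8 and 1.60 FPKM (-4.07), and Tbc1d2b, a Rab regulator, at 47.0 and 2.06 FPKM (-3.97). Stfa3, a cathepsin inhibitor of myeloid cells (16.5 FPKM), and Ly6d, a surface protein of early B cells (12.0 FPKM), were listed at 0 in the STZ library with intervals apart. The rest of the 15 lowest were Slc22a18, Tmem143, Hist1h2an, Spa17, S100z, Tppp and Mipol1, between -4.50 for Slc22a18 and -3.49 for Mipol1.

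Some calls rest on values listed at 0. Of the higher genes 19 were listed at 0 in the control library, and of the lower genes 47 were listed at 0 in the STZ library. The loci of 3952 genes were shared with other rows, and 16.2% of these were past 2-fold, beside 14% of the genes whose locus no other row shared. At 50 FPKM or more, 77 protein-coding genes were higher and 67 were lower.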

How the data were processed

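Reads were handled by the submitters with TopHat2, SAMtools and Cuffdiff on GRCm38 (mm10), per the submitters' processing notes; the sources used here give neither versions nor the annotation release. Libraries were stranded total RNA after Ribo-Zero Gold, per the labels' protocols. The authors deposited FPKM with interval bounds of unstated level, per the file headers. The number of reads is unknown: the log2 ratios of 904 genes read below 0.5 FPKM did not gather at shared steps (at most 25 in a bin of 0.05), so no whole reads were recovered. The median half-width of the intervals was 82.3% and 84.2% of the FPKM.

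From these values log2((FPKM + 1)/(FPKM + 1)), STZ over control, was computed with python 3.11.15 and pandas 2.3.3. In simulated data with little noise 100% of planted 4-fold changes were recovered. That checks the arithmetic and says nothing about the calls in these libraries. Intervals were used as deposited, although 18 and 13 genes lay outside their own. GENCODE M21 matched 8836 of the 8877 genes by Ensembl ID and gave positions and types. Small RNA was read from symbols and from that annotation's types, which together left out 88 rows.

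The genes and the 50 lists, with 1164 symbols, were chosen with earlier results of these data known. Named were Slc2a2, Ins1, Ins2, Gcg and Sst, the 15 highest and 15 lowest protein-coding genes without selenoproteins, list members past 2-fold (at most 4 per direction, otherwise the extremes) and cell type markers. Some genes that this rule names are not reported here. Further list members were named after their values were seen. Alternatives were 2 pseudocounts, 3 filters, 4 scalings, protein-coding genes alone, intervals apart and, added after the data were seen, genes whose locus no other row shares.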

Additional observations from a re-analysis of the deposited data

Results flagged for a closer look

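For 12 named genes the difference between STZ and control was at least 2-fold in the libraries labelled Glut2H and at least 2-fold in the opposite direction in those labelled Glut2L. These are 12 of the 150 included genes that are named and reached 5 FPKM in either library labelled Glut2L, many of them named for their difference in the Glut2H pair. Over all 7600 included genes at that level 122 (1.61%) lay in opposite directions in this way. The difference between the pairs was not tested, since each group holds 1 library, and both pairs came from the same groups of mice. Values below are log2 differences on the FPKM + 1 scale, the Glut2H pair first.

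Genes of immunity and repair that were lower in the Glut2H pair were low in the control library labelled Glut2L. Il6 was at -2.07 and 1.26, with 2.59 FPKM in that control library, C3 was at -1.40 and 1.12, with 5.16 FPKM there, and Parp3 was at -2.28 and 1.14, with 3.51 FPKM. Tppp, a tubulin-binding protein, was at -3.54 and 1.11, and the histone gene Hist1h2an was at -3.99 and 1.23.

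Hk1 was at 2.74 and -2.63, from 27.7 to 3.62 FPKM in the Glut2L pair. The trypsinogen gene Try5 was at 1.18 and -2.21, with 66.2 and 13.5 FPKM in that pair, where most other acinar genes were lower too. Rbl2 was at 1.52 and -1.14, and H3f3a was at 1.39 and -1.02. Engase, an enzyme that removes sugar chains from proteins, was at 3.28 and -2.14, and Fam154b was at 3.30 and -3.11. Txnrd3 was at 4.18 and -2.18, from 2771 to 612 FPKM in the Glut2L pair.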

How the results depend on the processing

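No paired analysis was possible because each group holds 1 library, and for the same reason no replicate could be left out. The count of genes at least 2-fold higher in the STZ library, 606, became 324 with a pseudocount of 5 FPKM, 240 with a minimum of 20 FPKM, 11 when the deposited intervals also had to lie apart, and 296 over genes whose locus no other row shares, a setting chosen after seeing the data. The count of genes at least 2-fold lower, 727, became 353, 266, 35 and 395 under the same settings, and 1289 both with no filter and with a minimum of 1 FPKM. The median difference, -0.05, became -0.26 with FPKM rescaled to equal sums over all rows, a scaling on which Gm20594 has most weight. Of 509 list medians under these settings 491 moved little, 18 moved and 0 that were past 2-fold changed sign. Only the medians of B cells (-1.91) and red blood cells (-4.94) were past 2-fold, so few could count as a change of sign. Medians near 0 could move little and still turn sign. That of the antioxidant genes did so under 6 of 11 settings and that of NAD metabolism under 5. The number of reads is unknown, so the precision of low values cannot be stated, and the intervals of most genes overlapped.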

Other observations

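Txnrd3, a thioredoxin reductase and 1 of the selenoprotein genes left out of the ranking above, stood at 201 FPKM in the control library and 3669 in the STZ library, and at 2771 and 612 FPKM in the libraries labelled Glut2L.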
